A study of Mus musculus with 4 samples.

Results

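Isg15 and the 4 genes that encode its conjugation system, Uba7, Ube2l6, Herc6 and Usp18, were examined after a triple knockdown in cultured mouse neural stem and progenitor cells. The 5 genes were taken by symbol from the 34866 gene identifiers of the deposited count table, and all 5 were found. They were chosen with their values in this comparison known. Isg15 and Usp18 stood among the highest fold changes of the series, so the values of the 5 genes are given below as descriptions, with no p-value. The triple knockdown group held 2 libraries of cells that received 3 lentiviral vectors at once, pLV-EG-shZfp57, pLV-EG-shZfp7 and pCS-EG-shPhf21b, at a multiplicity of infection of 10 each. The shControl group held 2 libraries of cells that received a single vector, CS-EG-shControl, at a multiplicity of infection of 30. The shControl cells are labelled wild type, and the genotype label of the triple knockdown cells gives the knockdown alone, with its targets spelled Phf21, Sfp7 and Zfp57 where the treatment label has Phf21b, Zfp7 and Zfp57. The cells of both groups came from E11.5 dorsal telencephalon, were transduced at plating and grew as free-floating neurospheres with basic fibroblast growth factor for 5 days, and all 4 libraries carried the same batch label. The number of vectors and part of the vector backbones differed between the groups, so their part in any difference cannot be told apart from that of the hairpins. Nothing in the labels says that the 2 libraries of a group came from separate cultures, so p-values measure the spread between these libraries, which may be technical.

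Isg15 is a ubiquitin-like protein that cells attach to other proteins after exposure to type I interferon or to viral nucleic acid. Uba7 is the enzyme that activates Isg15, Ube2l6 is the conjugating enzyme that takes it over, and Herc6 is the main ligase that joins it to targets in the mouse, a role that HERC5 holds in human cells. Usp18 is the protease that cuts Isg15 off again, and it also binds the interferon receptor subunit Ifnar2 together with Stat2 and dampens signalling there. Interferon signalling acts through a complex that contains Stat2 and Irf9, which binds the interferon-stimulated response element (ISRE) in promoters.

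The ISRE core, spelled GAAANNGAAA, was searched on both strands of RefSeq promoter windows (GRCm38.p6, from 250 bases before to 50 bases after the annotated start). Windows were at hand for Isg15, Uba7, Ube2l6 and Herc6, and Usp18 had none. The 3 windows below are shown because they range from a repeated exact core to no near match. Capitals mark every stretch that matches the core with at most 1 mismatch among its 8 fixed letters. They are written 5′ to 3′ on the gene's own strand.
Isg15, chr4:156200769-156201068, minus strand: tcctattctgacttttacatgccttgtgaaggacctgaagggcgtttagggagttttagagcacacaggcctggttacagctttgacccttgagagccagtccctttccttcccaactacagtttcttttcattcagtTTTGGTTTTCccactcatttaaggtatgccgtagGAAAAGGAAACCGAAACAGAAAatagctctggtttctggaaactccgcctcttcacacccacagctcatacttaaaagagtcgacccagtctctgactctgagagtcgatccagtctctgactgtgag
Uba7, chr9:107975317-107975616, plus strand: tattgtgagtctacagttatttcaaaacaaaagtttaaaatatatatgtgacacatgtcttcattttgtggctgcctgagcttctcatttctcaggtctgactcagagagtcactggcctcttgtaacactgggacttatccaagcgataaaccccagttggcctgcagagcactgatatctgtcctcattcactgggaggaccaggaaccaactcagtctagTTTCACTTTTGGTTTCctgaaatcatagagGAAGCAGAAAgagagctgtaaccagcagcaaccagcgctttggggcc
Ube2l6, chr2:84798578-84798877, plus strand: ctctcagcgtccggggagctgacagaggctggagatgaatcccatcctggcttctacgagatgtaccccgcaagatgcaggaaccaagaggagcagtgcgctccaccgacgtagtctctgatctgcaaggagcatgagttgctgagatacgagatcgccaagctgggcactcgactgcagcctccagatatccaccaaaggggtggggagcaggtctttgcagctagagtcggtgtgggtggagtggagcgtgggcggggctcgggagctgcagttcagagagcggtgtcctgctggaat

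Of the 4 windows, 1 held the exact core, that of Isg15. It held 3 exact cores on its own strand that overlap one another, beginning 78, 72 and 66 bases before the start, which form the capital run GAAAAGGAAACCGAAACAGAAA. The Uba7 window had 2 overlapping stretches with 1 mismatch on the opposite strand, beginning 27 and 21 bases before the start, and another on the gene's own strand at base 4, with the start counted as 1. The Herc6 window had 1 such stretch, on the opposite strand and beginning 197 bases before the start, and the Ube2l6 window had 0. The exact core was present in 3.44% of all 32851 windows, and 35.4% held a stretch with at most 1 mismatch. The gamma-activated site, spelled TTCNNNGAA, was absent in exact form from all 4 windows, and it was present in 8.3% of all windows. A match in letters is a description and does not show that a factor binds there.

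**Figure D1:**
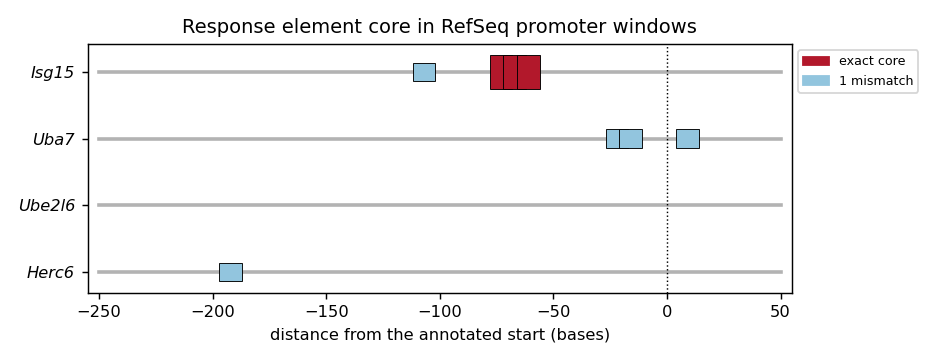
Stretches that match the ISRE core in the RefSeq promoter windows of 4 genes, by distance from the annotated start in bases, with boxes in red for exact matches and in blue for 1 mismatch. Isg15 has 3 overlapping exact cores between 78 and 57 bases before the start, and Ube2l6 has none of either kind.

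Isg15 (ENSMUSG00000035692, chromosome 4, 156199424 to 156200818 on the minus strand in GRCm38) is annotated with 1 transcript of 756 exonic bases. Its estimated counts were 109 and 64.7 in the triple knockdown libraries, against 19.0 and 11.0 in the shControl libraries. Both triple knockdown libraries therefore lay above both shControl libraries, and the groups did not overlap. In CPM, which are counts relative to the library's total after scaling by TMM factors, Isg15 averaged 5.02 ± 1.11 in the triple knockdown and 0.854 ± 0.0397 in shControl (SD, n = 2 each). The log2 fold change was 2.54 (SE 0.35), a 5.83-fold higher level, which ranked 22 among the 14050 genes tested. The ratio of pooled counts, 174 in the triple knockdown against 30 in shControl, was 5.92 with a 95% exact conditional interval of 4 to 9.04. That interval covers counting error only. Of the 31-base words in Isg15 transcripts, 12.8% also occur in another annotated gene, so a small part of its reads could be divided by the quantifier's model.

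Usp18 (ENSMUSG00000030107, chromosome 6, 121245906 to 121270917, plus strand) was nearly silent in shControl. It had 42 and 48 counts in the triple knockdown libraries, against 4 and 2 counts in the shControl libraries. The lowest triple knockdown library thus held more than 10 times the highest shControl count. Usp18 averaged 2.68 ± 0.628 CPM in the triple knockdown and 0.168 ± 0.0251 CPM in shControl (SD, n = 2 each), with a log2 fold change of 3.90 (SE 0.57) and rank 9 of 14050. The ratio of pooled counts, 90 in the triple knockdown against 6 in shControl, was 15.3, and its 95% exact conditional interval ran from 6.77 to 42.9. Usp18 passed the filter on low counts through its triple knockdown libraries alone, since 2 of them and 0 of the shControl libraries reached the filter's level of 0.605 CPM. A gene admitted in that way had to be higher in the triple knockdown. The part of its exonic bases that overlaps an antisense gene was 4.44%, and the files do not state whether reads were counted by strand.

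The genes of the 3 enzymes that attach Isg15 were present in both groups, with log2 fold changes between -0.04 and 0.41. Uba7 (ENSMUSG00000032596, chromosome 9, 107975505 to 107984060, plus strand) had 19 and 7 counts in the triple knockdown libraries, against 17 and 10 in the shControl libraries. The groups overlapped, and the triple knockdown libraries held both the highest and the lowest count. Its level was 0.734 ± 0.394 CPM in the triple knockdown and 0.770 ± 0.0271 CPM in shControl (SD, n = 2 each), with a log2 fold change of -0.04 (SE 0.57). The pooled ratio was 0.984 with an interval of 0.551 to 1.75, so at this depth a difference within those bounds was not detectable. Removing triple knockdown replicate 1 gave a log2 fold change of -0.75, and the value was 0.39 without triple knockdown replicate 2 and 0.04 when libraries were scaled by size alone, so no direction can be given for Uba7.

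Ube2l6 (ENSMUSG00000027078, chromosome 2, 84798828 to 84810335, plus strand) had 114 and 95.6 counts in the triple knockdown libraries, against 108 and 56.1 in the shControl libraries. In CPM, which allows for library size, both triple knockdown libraries (6.08 and 6.25) lay above both shControl libraries (5.02 and 4.21). The means were 6.17 ± 0.126 CPM in the triple knockdown and 4.61 ± 0.572 CPM in shControl (SD, n = 2 each), and the log2 fold change was 0.41 (SE 0.23). The pooled ratio was 1.29 with an interval of 1.05 to 1.60. That interval leaves out the spread between libraries, and Ube2l6 was not past the edgeR threshold.

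Herc6 (ENSMUSG00000029798, chromosome 6, 57581000 to 57664632, plus strand) had 107 and 68.8 counts in the triple knockdown libraries, against 104 and 56.8 in the shControl libraries. The groups overlapped in CPM, at 5.70 and 4.50 in the triple knockdown and 4.83 and 4.28 in shControl. Its log2 fold change was 0.16 (SE 0.24), and -0.03 without triple knockdown replicate 1. The pooled ratio was 1.12 with an interval of 0.897 to 1.39. Another annotated gene on the same strand, Gm45193, overlaps 13.7% of the exonic bases of Herc6, so Herc6 counts are uncertain to that extent.

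**Figure D2:**
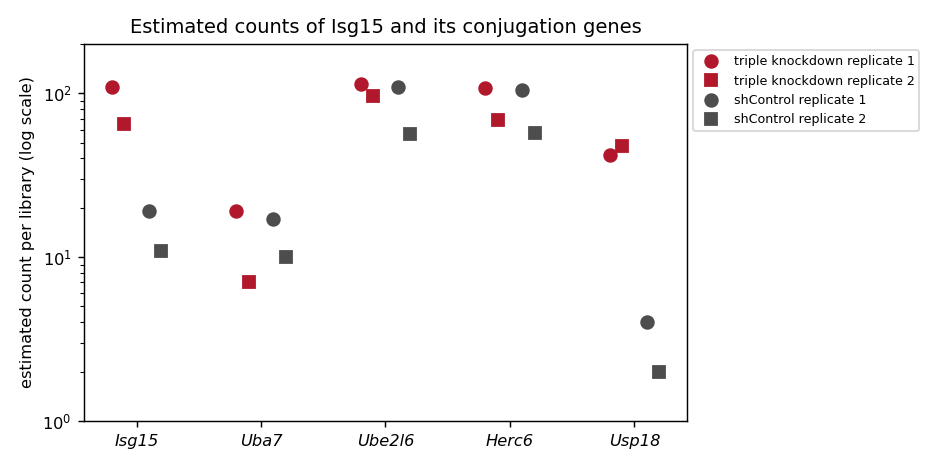
Estimated counts of each gene in each library on a log axis, with triple knockdown libraries in red and shControl libraries in grey, and replicate 1 as circles and replicate 2 as squares. Isg15 and Usp18 separate by group, with 64.7 and 109 counts of Isg15 and 42 and 48 of Usp18 in the triple knockdown, against at most 19.0 and 4 counts in shControl, while Uba7 and Herc6 overlap between the groups in CPM.

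The 5 genes were chosen on this comparison, so the counts that follow describe the choice and are no test of it. In the edgeR fit of the whole table, the higher side of the threshold held 2 of the 5 (Isg15 and Usp18) and the lower side 0, beside 0.541% of all tested genes higher and 0.826% lower. Both triple knockdown libraries exceeded both shControl libraries for 3 of the 5 (Isg15, Usp18 and Ube2l6), beside 19.6% of all tested genes. All 5 passed the filter on low counts, Usp18 in the way given above. The median log2 fold change of all 14050 tested genes was -0.01.

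The makeup of the system was compared as CPM per kilobase of exon, a scale on which levels of different genes can be set side by side. In the triple knockdown libraries the order was Isg15 (7.69 and 5.60), Ube2l6 (3.04 and 3.13), Usp18 (0.802 and 1.12), Herc6 (0.614 and 0.484) and Uba7 (0.151 and 0.0681). In the shControl libraries the order was Ube2l6 (2.51 and 2.11), Isg15 (1.17 and 1.09), Herc6 (0.520 and 0.461), Uba7 (0.118 and 0.112) and Usp18 (0.0666 and 0.0539). Neighbours in either order did not overlap between the libraries of a group. Isg15 stood at 2.52 and 1.79 times Ube2l6 per length in the triple knockdown, against 0.464 and 0.519 times in shControl, and so changed places with it. Usp18 stood at 0.264 and 0.358 times Ube2l6 in the triple knockdown, against 0.0265 and 0.0256 times in shControl. Isg15 made up 62.5% and 53.8% of the 5 genes' summed level in the triple knockdown libraries, against 26.6% and 28.6% in the shControl libraries, and Ube2l6 made up 24.8% and 30.1% in the triple knockdown, against 57.3% and 55.1% in shControl. Exonic length was the union over annotated transcripts, 756 bases for Isg15 and 9292 for Herc6, so the level of a gene with many partial transcripts is understated.

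**Figure D3:**
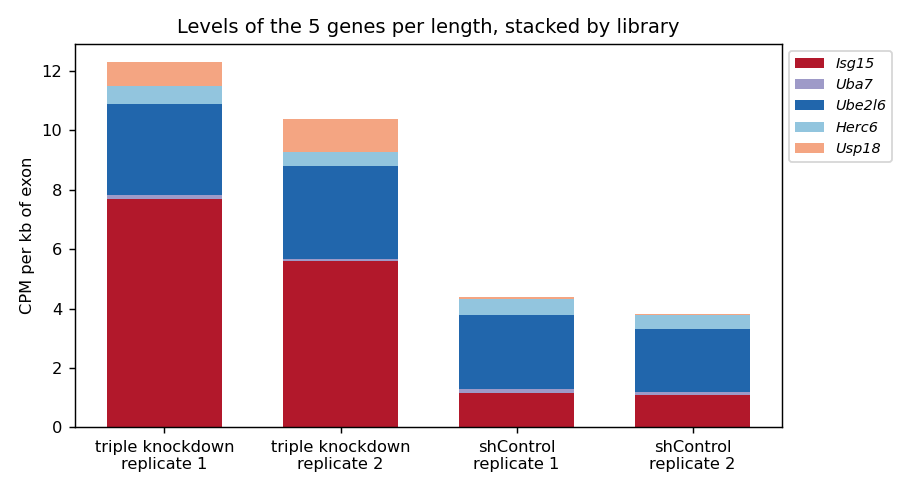
Stacked levels of the 5 genes in CPM per kilobase of exon, with 1 bar per library and the triple knockdown libraries on the left. Isg15, at the base of each bar, reaches 7.69 and 5.60 in the triple knockdown and 1.17 and 1.09 in shControl, while Ube2l6 lies between 2.11 and 3.13 in the 4 libraries.

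The 3 targeted genes did not pass the test. Zfp57 measured 10.7 and 9.32 CPM in the triple knockdown libraries, against 14.6 and 11.8 CPM in shControl. Phf21b measured 5.49 and 6.45 CPM in the triple knockdown, against 7.25 and 7.36 CPM in shControl, and Zfp7 measured 1.97 and 0.977 CPM in the triple knockdown, against 1.67 and 2.25 CPM in shControl. The log2 fold change was -0.40 for Zfp57, -0.29 for Phf21b and -0.37 for Zfp7 (edgeR adjusted p = 0.341, 0.644 and 0.80 in that order), and 20.2% of the 31-base words of Zfp7 occur in another gene. Without triple knockdown replicate 2 the value for Zfp7 was 0.03. The labels were checked against cell type markers. The 8 neural progenitor markers summed to 20600 and 23300 CPM in the triple knockdown, against 23000 and 28000 CPM in shControl, and 0 of them were at 0 in all libraries.

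Part of the other interferon-stimulated genes rose. Of a list of 49 such genes, which leaves out the 5 above, 30 had enough counts to be tested. Of these 30, 9 rose, 0 fell and 21 did not pass in edgeR, and DESeq2 called 6. Over all 14050 tested genes, edgeR called 0.541% higher and 0.826% lower, and the median log2 fold change was -0.01. Of the 30, 4 passed the filter through the triple knockdown libraries alone (Ifi44, Oas1a, Mx2 and Samd9l) and 2 through the shControl libraries alone (Ifi35 and Psmb9), and such genes had to differ. Mx2 and Samd9l are among the 9, and of the other 24 tested genes 7 rose and 0 fell, with a median log2 fold change of 0.56. Among all 30 tested genes, 23 log2 fold changes lay above 0 and 7 below, and the median was 0.64. The list was written with earlier results of these data known, and it is not independent evidence of a direction. Ifi27, a mitochondrial protein, rose to 25.1 ± 0.967 CPM in the triple knockdown, against 3.14 ± 0.0882 CPM in shControl (log2 fold change 2.99, SE 0.20, edgeR adjusted p = 3.44e-21). Bst2, which tethers budding viruses to the cell, had 252 and 207 counts in the triple knockdown libraries, against 53 and 31 in the shControl libraries, with a log2 fold change of 2.48 (SE 0.23, edgeR adjusted p = 2.13e-14). Rtp4, an interferon-induced chaperone of receptors, had 538 and 513 counts in the triple knockdown, against 98 and 27 in shControl, a log2 fold change of 3.16 (SE 0.21, edgeR adjusted p = 2.05e-16). Without shControl replicate 1 the value for Rtp4 was 3.93, and 13.9% of its exonic bases overlap another gene. Ifitm3, a membrane protein that blocks virus entry, rose to 57.2 ± 0.611 CPM in the triple knockdown, against 22.7 ± 2.71 CPM in shControl (log2 fold change 1.34, SE 0.15, edgeR adjusted p = 7.22e-11). Of the 31-base words of Ifitm3, 20.5% occur in another gene. Mx2, annotated in GENCODE as a polymorphic pseudogene, had 55 and 32 counts in the triple knockdown, against 8 and 5 in shControl (log2 fold change 2.73, SE 0.49, edgeR adjusted p = 0.000183). Since it entered through the triple knockdown libraries alone, that p is not an independent test. Its call was lost without triple knockdown replicate 1 (log2 fold change 2.46, edgeR adjusted p = 0.173). The other 4 genes that rose were Irf9, Gbp3, Irgm1 and Samd9l.

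Markers of other cell types that the cultures could hold were set beside these results. The 12 markers of microglia and other myeloid cells summed to 43.7 and 38.0 CPM in the triple knockdown libraries, against 40.5 and 43.3 CPM in the shControl libraries, with 0 of 9 tested past the threshold and 0 of the 12 at 0 throughout. The 6 endothelial markers summed to 5.86 and 5.34 CPM in the triple knockdown, against 5.02 and 6.08 CPM in shControl, also with 0 past the threshold. The 6 markers of lymphocytes and plasmacytoid dendritic cells summed to 2.45 and 3.26 CPM in the triple knockdown, against 1.07 and 2.10 CPM in shControl. Of these markers 2 were tested and 0 passed the threshold, and Nkg7 and Ighm were at 0 in all libraries. The 6 markers of mesenchyme and pericytes summed to 43.5 and 46.4 CPM in the triple knockdown, against 47.3 and 44.5 CPM in shControl, with 0 past the threshold. The 6 erythroid markers summed to 39.0 and 37.1 CPM in the triple knockdown, against 24.3 and 27.2 CPM in shControl, with Hbb-y past the threshold in the higher direction. The 5 neuronal markers summed to 502 and 497 CPM in the triple knockdown, against 665 and 608 CPM in shControl, with Tubb3 and Neurod6 past the threshold in the lower direction. Over all tested genes, 0.541% were past the threshold in the higher direction and 0.826% in the lower. In bulk RNA, fewer cells of a type and less RNA per cell cannot be told apart. The part of the erythroid, lymphoid and neuronal differences in the Isg15 and Usp18 results was not tested.

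The interferons, their receptors and the signalling chain were mostly not past the threshold. Of the 30 genes listed, 29 were found by symbol, and Mb21d1 was not, so its level is not known here. Of those found, 16 were tested, of which 1 rose, 0 fell and 15 did not pass. Over all tested genes, 0.541% rose and 0.826% fell. The median log2 fold change of the 16 was -0.05, beside -0.01 for all tested genes. Without shControl replicate 2 the number that rose was 2. The gene that rose was Irf9, also counted in the list above, the DNA-binding subunit of the complex that acts on the ISRE. Irf9 had 123 and 91.1 counts in the triple knockdown libraries, against 55.3 and 26.0 counts in the shControl libraries, and measured 6.24 ± 0.444 CPM in the triple knockdown and 2.25 ± 0.425 CPM in shControl (SD, n = 2 each; log2 fold change 1.44, SE 0.26, edgeR adjusted p = 0.000226). Stat2, which binds Irf9, did not pass, with a log2 fold change of -0.33 (adjusted p = 0.781 in edgeR), and it was singled out after its values were seen. Of 11 interferon genes listed, 7 were at 0 in all 4 libraries, which allows up to 3 counts each per library, or 0.139 to 0.225 CPM. The other 4 held 4 counts in all in the triple knockdown libraries and 9 in the shControl libraries. Ifnb1, chosen after its values were seen, had 2 and 1 counts in the triple knockdown and 0 and 0 in shControl, a level at which no difference can be read.

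Genes whose proteins work beside the system were not past the threshold in either direction, as measured in RNA. Of 14 listed partners and other proteases of Isg15, 11 were tested and 0 were called in edgeR, with 0 at an unadjusted p under 0.05 and 0 by DESeq2. Their median log2 fold change was -0.04, with a range of -0.33 to 0.30. Usp14, a deubiquitinase of the proteasome that also reacts with Isg15 probes, measured 58.6 ± 2.40 CPM in the triple knockdown and 51.2 ± 5.86 CPM in shControl (SD, n = 2 each), although 26.0% of its exonic bases overlap an antisense gene. Eif4e2, a cap-binding protein modified by Isg15, measured 44.2 ± 1.03 CPM in the triple knockdown and 42.6 ± 6.31 CPM in shControl, and Arih1, a ligase that modifies it, measured 16.9 ± 1.26 CPM in the triple knockdown and 18.1 ± 2.60 CPM in shControl.

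Relatives of the 5 genes in the ubiquitin system were tested as well. All 29 listed ubiquitin-like proteins, activating and conjugating enzymes, HERC proteins and proteases were tested, and 0 were called in edgeR, with 0 at an unadjusted p under 0.05 and 0 by DESeq2. Their median log2 fold change was 0.00, with a range of -0.39 to 0.23. The most abundant were Rps27a, a ubiquitin fused to a ribosomal protein, at 4524 ± 44.1 CPM in the triple knockdown and 4514 ± 788 CPM in shControl, and Sumo2 at 2198 ± 120 CPM in the triple knockdown and 2051 ± 134 CPM in shControl. The polyubiquitin gene Ubb measured 788 ± 47.8 CPM in the triple knockdown and 791 ± 96.7 CPM in shControl (SD, n = 2 each). Values for these 3 genes are uncertain, since 50.3% of the 31-base words of Ubb, 22% of those of Rps27a and 21.3% of those of Sumo2 occur in another gene.

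**Figure D4:**
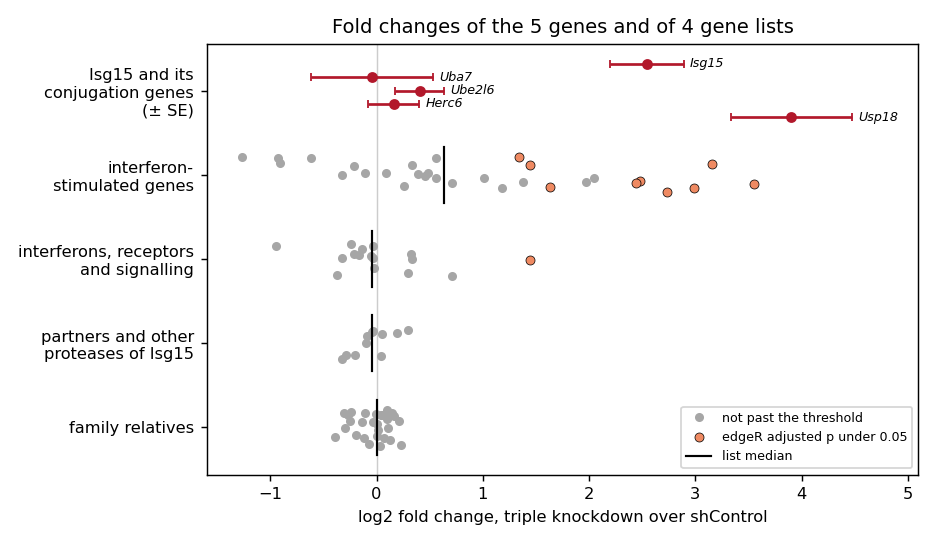
Log2 fold changes, triple knockdown over shControl, of Isg15 and its conjugation genes with their SE (top row) and of the tested members of 4 lists, where orange points passed the edgeR threshold and black bars are list medians. Isg15 (2.54) and Usp18 (3.90) lie apart from Uba7, Ube2l6 and Herc6 (-0.04 to 0.41), and the 29 family relatives all lie between -0.39 and 0.23.

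Genes next to the 5 on the chromosome were compared with them. The nearest tested protein-coding gene on each side of each member gave 10 genes, and 0 of them were past the threshold in edgeR, with 0 at an unadjusted p under 0.05. Over all tested genes, edgeR called 0.541% higher and 0.826% lower, so 0 calls among 10 genes is near that share. The log2 fold changes of the 10 genes ran from -0.80 to 0.33. Beside Isg15 lie Agrn, which encodes agrin, 1936 bases away, and AW011738, 2486 bases away. Agrn had 513 and 382 counts in the triple knockdown libraries, against 600 and 478 in the shControl libraries (log2 fold change -0.28, SE 0.15, edgeR adjusted p = 0.472). AW011738 had 13 and 7.13 counts in the triple knockdown libraries, against 10 and 10 in the shControl libraries. The tested genes nearest to Usp18 lie farther off. They are Pex26, a peroxisome biogenesis gene 47069 bases away, and Iqsec3, which encodes a synaptic exchange factor, 102016 bases away. Pex26 and Iqsec3 had log2 fold changes of -0.13 and -0.80 (edgeR adjusted p = 0.95 and 0.431).

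The genes whose profile over the 4 libraries was most like that of Isg15 were found by the Euclidean distance between log2 CPM values, each centred on its own mean, among 12233 protein-coding genes that averaged 1 CPM or more. The 5 nearest were Neu1 (distance 0.30), Bst2 (0.32), Tmem170 (0.36), Dbx2 (0.53) and Ifi27 (0.62). Neu1, a lysosomal sialidase, had 642 and 407 counts in the triple knockdown, against 141 and 94 in shControl, and Dbx2, a homeobox gene, had 48 and 38 counts in the triple knockdown, against 10 and 8 in shControl. Of these 5, 2 belong to the list of interferon-stimulated genes. On the same measure Usp18 lay at 1.11, Ube2l6 at 2.01, Herc6 at 2.24 and Uba7 at 2.56. The measure rests on 4 libraries in 2 groups, and the 5 nearest genes have log2 fold changes of 2.17 to 2.99, beside 2.54 for Isg15.

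The exact ISRE core was counted over the same lists. Of the 9 interferon-stimulated genes that rose, 6 had a promoter window and 4 of those held the core (Bst2, Ifitm3, Gbp3 and Irgm1). Of the 21 tested genes that did not pass, 17 had a window and 6 held the core. Of the 5 genes most like Isg15, 4 had a window, and the core was found in that of Bst2 alone. Over all 38 listed genes with a window, 47.4% held the core, beside 3.99% of the 27025 genes in the table.

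**Figure D5:**
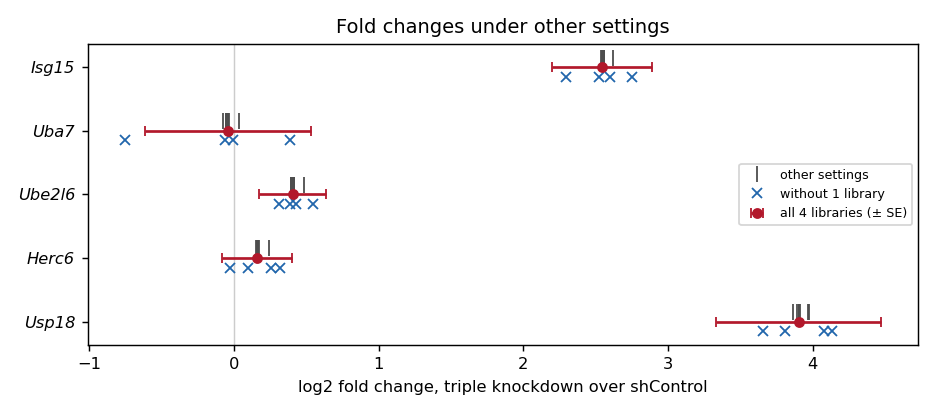
Log2 fold changes, triple knockdown over shControl, of the 5 genes with all 4 libraries (red points, SE), under other settings (grey ticks) and without 1 library (blue crosses). Isg15 stays between 2.29 and 2.75 and Usp18 between 3.66 and 4.13, while Uba7 runs from -0.75 to 0.39 and Herc6 from -0.03 to 0.32.

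The spread between libraries and the settings of the analysis moved the 5 genes unequally. Over 12 alternative fits the log2 fold change of Isg15 ran from 2.29 to 2.75, that of Usp18 from 3.66 to 4.13 and that of Ube2l6 from 0.31 to 0.55. The lowest and the highest of these values came from fits without 1 library. That of Herc6 ran from -0.03 to 0.32, and that of Uba7, over 11 fits, from -0.75 to 0.39.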

How the data were processed

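RNA was sequenced from 4 libraries, 2 triple knockdown and 2 shControl. Gene-level estimated counts without normalization were deposited by the authors in 1 table, made with Salmon on GRCm38 and mm10 per the submitters' processing notes. For Salmon, the version and annotation release were not given in the sources used here. Library totals were 17901386 and 15170491 estimated counts in the triple knockdown and 20779211 and 14694387 in shControl, and 23.1% to 25.1% of values were not whole. These were rounded before testing. Identifiers were matched without version to GENCODE M21, and 34652 of 34866 had a symbol.

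The whole table was fitted with edgeR 4.0.16 in R 4.3.3 with TMM factors, filterByExpr (minimum count 10, 14050 genes kept), robust quasi-likelihood dispersions and glmQLFTest, which is two-sided, with Benjamini-Hochberg adjustment over all tested genes and a threshold of 0.05. The SE is the log2 fold change divided by the square root of F. The fit was also run on simulated counts that share a single dispersion over all genes, so that run does not cover spread that differs between genes. Fold changes are triple knockdown over shControl. Profiles of log2 CPM used a prior count of 2. Alternatives were other scaling, filters, DESeq2 1.42.0, unrounded counts, removal of mitochondrial genes, a replicate block and leaving out each library. Exact intervals are at 95% and cover counting error only. Promoter sequences come from RefSeq (GRCm38.p6). The 5 genes and all lists were chosen with earlier results of these data known. Named from each list were at most 5 members that passed, in order of p, or in their absence the 3 with the highest mean CPM, and beside them the 5 genes, the 3 targeted genes and the 5 genes most like Isg15.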

Additional observations from a re-analysis of the deposited data

How the results depend on the processing

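Each library held few counts of Uba7 and Usp18, which limits both. The number of genes past the threshold, 76 higher and 116 lower, was 27 higher and 39 lower with DESeq2, and 28 were lower when libraries were scaled by size alone. Without 1 library the counts ran from 27 to 280 higher and from 17 to 334 lower, the fewest without triple knockdown replicate 1 and the most without shControl replicate 2. They were 36 and 27 without triple knockdown replicate 2, and 112 and 184 without shControl replicate 1. The number of listed interferon-stimulated genes that rose ran from 6 to 10 over the 12 alternatives, and 0 fell in each. The log2 fold change of Uba7 ran from -0.75 to 0.39 without 1 library, and the cause was not tested. That of Zfp7 was -0.98 without triple knockdown replicate 1 and turned to 0.028 without triple knockdown replicate 2. Log2 fold changes near 0 also changed sign when 1 library was left out, running from -0.245 to 0.063 for Arih1, from -0.076 to 0.213 for Eif4e2, from -0.167 to 0.206 for Rps27a and from -0.113 to 0.123 for Ubb. With no filter Rps27a had -0.004, and Ubb had 0.072 with scaling by size alone and 0.006 with RLE factors. The call of Mx2 was lost without triple knockdown replicate 1 (adjusted p = 0.173 in edgeR), and that of Dbx2 in the same fit (0.12) and with DESeq2 (0.115). The difference in mean log2 CPM of Usp18 was 3.29 with a prior count of 2 and 2.68 with a prior count of 5. With 1 mismatch allowed, 3 of the 4 promoter windows held the ISRE core in place of 1.

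Same-numbered libraries of the 2 groups did not deviate together (correlation of deviations -0.0324 over 14050 genes), and the labels do not say that a number marks a shared culture. With the replicate block the log2 fold changes were 2.56 for Isg15, 3.86 for Usp18, 0.41 for Ube2l6, 0.16 for Herc6 and -0.08 for Uba7, and 75 genes were higher and 97 lower.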

Other observations

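Within the list of interferon-stimulated genes, 7 of the 30 tested genes had a log2 fold change below 0, and 0 of these passed the threshold in edgeR. Psmb9, a subunit of the immunoproteasome, had 8 and 3 counts in the triple knockdown libraries, against 16 and 10.7 in the shControl libraries (log2 fold change -1.27, SE 0.67, edgeR adjusted p = 0.453). Ifi35 had 7 and 8 counts in the triple knockdown, against 16 and 13 in shControl (log2 fold change -0.92, SE 0.62, edgeR adjusted p = 0.597). Ifit1, an RNA-binding member of the list, is not among those below 0, with a log2 fold change of 0.39. It measured 6.09 ± 1.71 CPM in the triple knockdown and 4.75 ± 1.14 CPM in shControl (SD, n = 2 each), and the groups overlapped. Psmb9 and Ifi35 passed the filter on low counts through the shControl libraries alone, so their values had to be lower in the triple knockdown. These 3 genes were chosen after their values were seen.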
